A study of Drosophila melanogaster with 3 samples.

Results

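The 9 core Notch pathway genes N, Dl, Ser, neur, fng, Su(H), mam, H and numb were chosen by name from 13945 protein-coding genes of the main chromosomes, and every summit in the gene body or within 10 kb of it was collected. The chromatin immunoprecipitation sequencing (ChIP-seq) was directed at CG17385 in whole Drosophila melanogaster embryos collected from 0 to 24 h, males and females pooled, of a transgenic line that stably expresses CG17385 with GFP fused to its C-terminus. There were 3 biological replicates of this 1 group, and no other genotype, stage or tissue, so no comparison between conditions was possible. The deposited lists were 30000 peaks and background intervals for each replicate, 30000 from the pooled replicates, and an IDR list of 7588 peaks. IDR stands for irreproducible discovery rate. Of the IDR peaks, 29 had their summit in the windows of the 9 genes. Each of the 29 had the same rank by signal in the IDR list as in the pooled list, down to rank 7120. Down to that rank the IDR list thus held the strongest pooled peaks. A place on it does not show that a peak recurred in each replicate. The labels conflict in that a descriptive line calls the samples input controls, while their assay and antibody fields describe immunoprecipitation, and the lists were read as ChIP lists.

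The Notch pathway carries signals between neighbouring cells. The transmembrane ligands Delta and Serrate on one cell bind the receptor Notch on the next, the receptor is cut, and its intracellular part enters the nucleus and joins the DNA-binding protein Su(H) and the coactivator Mastermind at target genes, at which Su(H) otherwise acts with the corepressor adaptor Hairless. In the Drosophila embryo the pathway is best known for lateral inhibition, by which single neural precursors are singled out, and for the unequal fates of sister cells after asymmetric division, in which Numb takes part. Whole embryos mix all these cells, and a summit cannot be assigned to any of them.

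Of the 9 genes, 7 had at least 1 IDR summit in the window (77.8%), where 71.2% of all protein-coding genes had one, and Ser and H had none. The same 7 genes had an IDR summit in the body itself, against 18.2% of all genes, but most of the 9 are long: their median body length was 23.5 kb, and that of all protein-coding genes 2.17 kb. In the window, the share of genes with an IDR summit was 67.6% for bodies under 5 kb, 81.3% for 5 to 20 kb and 83.1% for 20 kb or more. Of the 6 members of 20 kb or more (N, Dl, Ser, mam, fng and numb), 5 had a summit in the window and 5 in the body, where 64.5% of all genes of that length had one in the body. Per 10 kb of window the median was 0.428 IDR summits for the 9 genes, long and short together. It was 0.491 for all protein-coding genes and 0.467 for those of 20 kb or more. The 6 long members lay on both sides of 0.467: mam had 1.57, N 0.697, fng 0.688, numb 0.428, Dl 0.230 and Ser 0. The share of genes with a summit in the window was near the background. The median density of the 9 was not above that of all protein-coding genes.

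**Figure D1:**
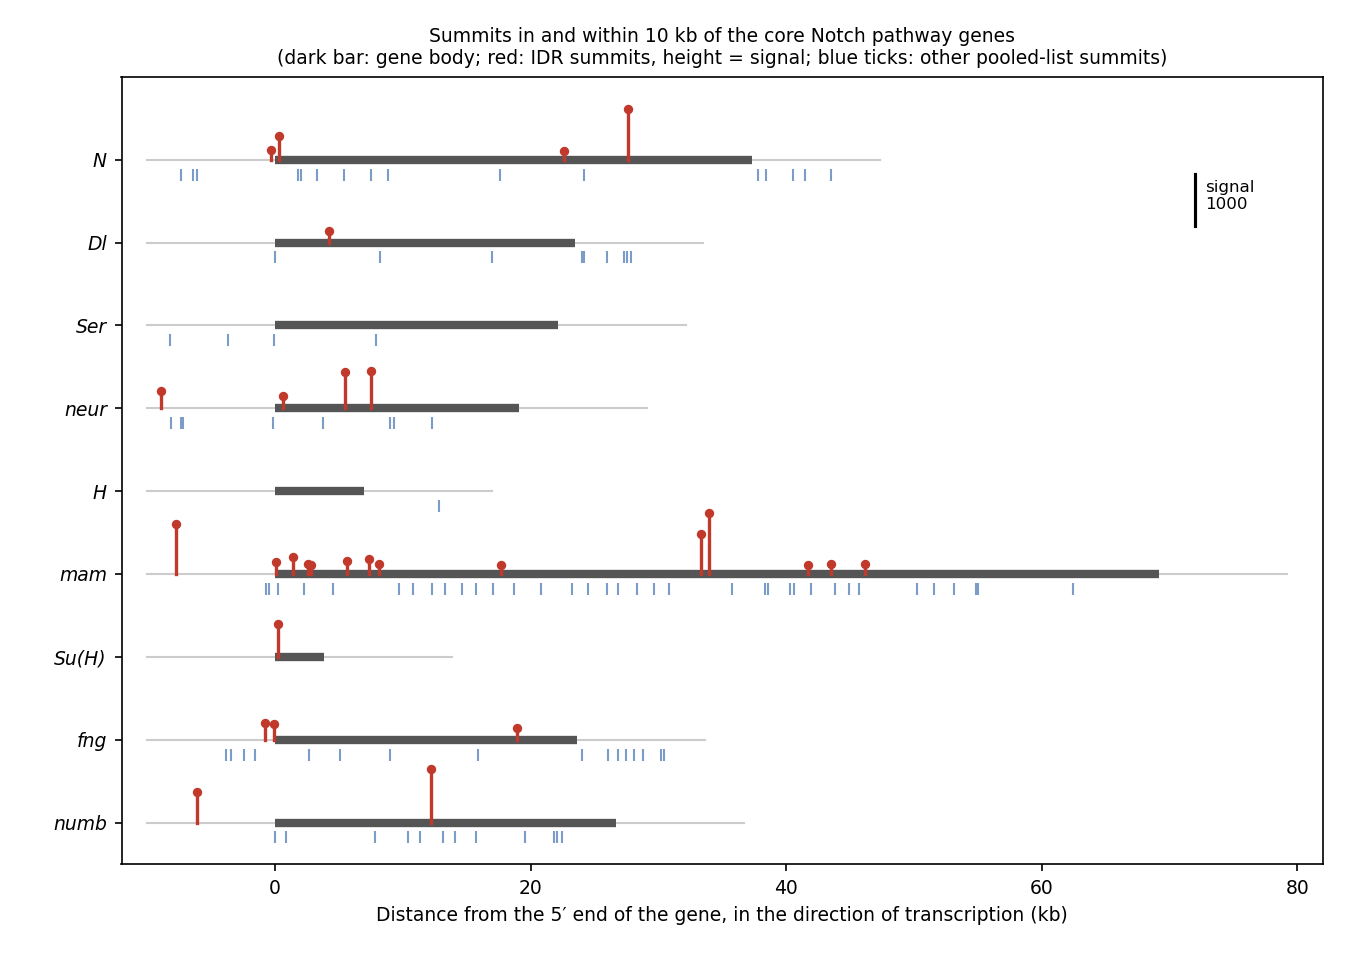
Map of each gene on a common scale. The x axis is the distance in kb from the 5′ end in the direction of transcription, dark bars are gene bodies, thin lines the 10 kb on each side, red stems the IDR summits with height proportional to the deposited signal, and blue ticks the other summits of the pooled list. The 14 IDR summits of mam include a tight group at its 5′ end and a strong pair in the middle of the gene, Ser and H have none, and the strongest summits of N, mam and numb lie far inside the gene.

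The 29 IDR summits were spread unevenly over the genes. The mam window held 14 of them, N and neur 4 each, fng 3, numb 2, and Dl and Su(H) 1 each. A count of 14 or more was found at 38 protein-coding genes (0.272%), and with its body of 69.2 kb mam was also the longest of the 9. Introns of the members held 20 of the 29 summits, 5′ UTRs 3, and upstream sequence 6, with no summit in coding sequence, in a 3′ UTR or downstream. The start site nearest to the summit was the member's own for 20 summits and that of another protein-coding gene for 9, and 4 of these lay within 500 bp of the other gene's start. Signal is the value deposited for each peak, whose scale the sources do not state, so signals were compared only within a list. It ran from 169 to 1176 over the 29 summits, with a median of 295, against a median of 294 and a highest value of 6471 over all IDR peaks, so the summits of the 9 genes lay around the middle of the list, and the highest of them ranked 608.

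**Figure D2:**
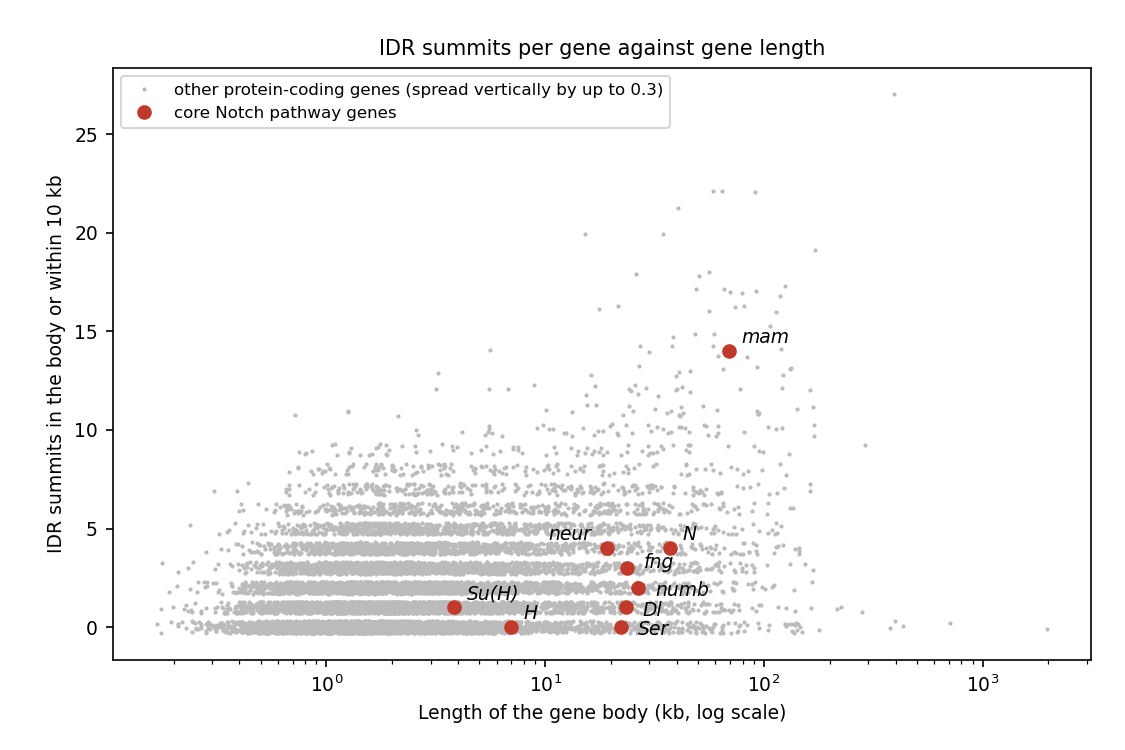
Number of IDR summits in the body or within 10 kb (y axis) against the length of the gene body in kb (x axis, log scale). Red points are the 9 genes and grey points the other protein-coding genes. The count of mam is 14 at a length of 69.2 kb, and the other 8 genes lie at 0 to 4.

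The receptor gene N (FBgn0004647, chromosome X, 3134870 to 3172221, plus strand) had its strongest summit far from its start. It lay at 3162534, 27664 bp into the gene in the intron numbered 5 in the longest annotated transcript, an intron of 4245 bp, with a signal of 972 and rank 800 in the pooled list. The start of another protein-coding gene lay nearer to it, at 10606 bp. The ranks in replicates 1, 2 and 3 were 805, 638 and 938, with signals of 306, 294 and 376 in their own lists and summits 11 bp or less from the pooled one. It ranked within the strongest 1000 of every replicate list, and its sequence is shown because it carries none of the motifs or words searched for, described further on. On dm6 it is chrX:3162484-3162584, plus strand, written 5′ to 3′ with no base in capitals.
N intron summit: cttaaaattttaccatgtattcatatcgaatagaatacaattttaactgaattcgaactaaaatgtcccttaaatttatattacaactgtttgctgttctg

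At the start of N a pair of summits 701 bp apart flanked the start site. The stronger one lay at 3135231, in the 5′ UTR 361 bp downstream of the start, with a signal of 455 and ranks of 1404, 4316 and 2643 in replicates 1, 2 and 3. The other lay 340 bp upstream at 3134530, inside the annotated span of the neighbouring gene kirre, with a signal of 184 and ranks of 20204, 4543 and 5451, so that replicate 1 placed it far lower than the others did. Another weak summit at 3157513 in the intron numbered 4 (signal 174) was matched in replicates 1 and 3 at ranks 15401 and 6273. In replicate 2 the nearest summit lay 112 bp away, past the 100 bp allowed for a match.

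The ligand genes had 1 IDR summit between them. Dl, listed as Delta in the annotation (FBgn0000463, chromosome 3R, 19302731 to 19326217, minus strand), had 1 IDR summit, at 19321973 in its first intron, 4244 bp downstream of the start. Its signal was 224, and its ranks in replicates 1, 2 and 3 were 3563, 7003 and 6109. The replicate summits lay up to 53 bp from the pooled one, to either side of it. The strongest Dl summit outside the IDR list was also intronic, at 19309254, with a signal of 131 and ranks of 7798, 9749 and 11799. At the start site itself the pooled list held a summit 24 bp upstream of it at rank 11336, outside the IDR list, with its nearest counterparts at ranks 19330, 7045 and 12657. Ser (FBgn0004197, 3R, 27172090 to 27194267, minus strand), the gene of the second ligand, had 4 pooled summits and no IDR summit. Its strongest lay 73 bp upstream of the upstream start site with a signal of 125 and rank 9770, where the lowest signal in the IDR list was 159.9. Counterparts of this summit ranked 9213, 27778 and 9798 in replicates 1, 2 and 3. Both ligand genes thus had a listed summit at the start site in every replicate, of widely differing rank, and neither pooled summit there was in the IDR list.

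The intronic summit of Dl is shown because it holds words common at the strongest peaks of the whole list. It is chr3R:19321923-19322023 on dm6, read on the minus strand as the gene is. The capitals mark first the reverse complement of GAA words (defined further on) and then that of a GAGA match.
Dl intron summit: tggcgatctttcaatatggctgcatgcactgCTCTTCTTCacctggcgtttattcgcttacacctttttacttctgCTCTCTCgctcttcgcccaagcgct

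The gene neur (FBgn0002932, 3R, 9020348 to 9039471, minus strand) encodes the E3 ubiquitin ligase Neuralized, which acts on the ligands in the signal-sending cell. It had a pair of summits of nearly equal strength, 2002 bp apart, around its downstream start site. The first, at 9031972 and 1759 bp downstream of that start, had a signal of 718 and ranks of 1252, 1364 and 1146. The second, at 9033974 and 243 bp upstream of it, had a signal of 698 and ranks of 1077, 1729 and 1277. Which of the pair ranked higher differed between replicates: replicate 1 placed the upstream one higher, and replicates 2 and 3 the other. The remaining neur summits lay nearer to other genes. One at 9038862 (signal 243) was 609 bp from the upstream neur start and 102 bp from that of hyx, which overlaps neur. The other at 9048352 (signal 331) lay inside Nmdmc, 293 bp from the start of Mst85C and 8881 bp upstream of neur.

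The gene fng (FBgn0011591, chromosome 3L, 20925891 to 20949512, minus strand) encodes the glycosyltransferase Fringe, which modifies the Notch receptor and changes its response to the ligands. A pair of summits 649 bp apart lay upstream of its only annotated start. The nearer, 107 bp upstream at 20949619, had a signal of 295. It ranked 4582 in replicate 2 and 2886 in replicate 3 and was unmatched in replicate 1, where a summit ranked 3741 lay 114 bp away, 7 bp past the start. The farther, 756 bp upstream at 20950268, had a signal of 331 and ranks of 3535, 2520 and 4157. Another summit at 20930590, in the intron numbered 4 (signal 222), ranked 3918, 4313 and 8988. The summit nearest to the start is shown because its centre is a run of GAGA matches. It is chr3L:20949569-20949669 on dm6, minus strand, with the reverse complement of these matches in capitals.
fng start summit: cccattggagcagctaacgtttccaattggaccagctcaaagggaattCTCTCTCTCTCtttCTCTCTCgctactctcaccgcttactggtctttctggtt

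Among the genes of the nuclear complex, Su(H) and mam had IDR summits at their starts and H had none. Su(H) (FBgn0004837, chromosome 2L, 15039488 to 15043334, plus strand), which encodes the DNA-binding protein of the pathway, had a single pooled summit in its whole window, and that summit was in the IDR list. It lay at 15039696 in the 5′ UTR, 208 bp downstream of the start, with a signal of 629 and ranks of 1143, 2773 and 1364. In replicate 2 a stronger summit, ranked 1718, stood 11 bp upstream of the start and had no pooled counterpart within 100 bp.

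The coactivator gene mam (FBgn0002643, chromosome 2R, 13991203 to 14060356, plus strand, 3 annotated start positions) had its summits mainly in a group at the 5′ end and a strong pair farther in. Within 8143 bp of the first start lay 7 summits spanning 8092 bp, with signals of 179.7 to 332. The summits 2579 and 2817 bp downstream came from overlapping intervals, and replicate 1 had a match only for the farther, so they may not be separate sites. The strongest of the 7, 1399 bp downstream of the start, ranked 2926, 3611 and 3944, and the one at the start itself, 51 bp downstream, ranked 9396, 5006 and 3656. The pair, 672 bp apart, lay in an intron of 27528 bp, about midway along the gene. The stronger of them, at 14025191 and 6472 bp upstream of the third start, had the highest signal at any of the 9 genes, 1176, and its ranks of 583, 620 and 613 differed little between replicates. Its neighbour at 14024519 had a signal of 779 and ranks of 1234, 766 and 1192. The start of another protein-coding gene lay nearer to both, 3429 bp from the stronger and 4101 bp from its neighbour. A summit 299 bp upstream of the second start was weak (signal 169), as were 3 summits between 1281 and 5732 bp past the third start (181 to 188). The remaining summit of the window, with a signal of 969, lay inside CG8067, 79 bp from its start and 7729 bp upstream of mam.

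H (FBgn0001169, 3R, 20621938 to 20628915, plus strand), the gene of the adaptor Hairless that links Su(H) to corepressors, had no summit in its body in the pooled list or in any replicate list, and none within 500 bp of its start. The 1 pooled summit of its window lay 5892 bp past the gene end and 75 bp from the start of Pi3K92E, at rank 10436. The replicate lists held 1, 2 and 2 summits in this window, all of them past the gene end and within 500 bp of the start of Pi3K92E or Lrrk. The strongest, in replicate 3, lay 289 bp from the start of Lrrk at rank 3310, and no pooled summit lay within 100 bp of it.

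The gene numb (FBgn0002973, 2L, 9437469 to 9464184, plus strand) encodes an inhibitor of Notch that is passed to one daughter cell in asymmetric divisions. Its strongest summit, at 9449686, had a signal of 1036, the second highest at the 9 genes, and lay 144 bp upstream of the second annotated start position, in an intron of the longest transcript. The ranks in replicates 1, 2 and 3 were 956, 721 and 655, and the replicate summits lay within 3 bp of the pooled one. No IDR summit lay at the first start. The other numb summit, at 9431342 with a signal of 585, stood 63 bp from the start of scat and 6127 bp upstream of numb. The sequence at the internal start is shown because it is the strongest summit within 500 bp of a member's own start. It is chr2L:9449636-9449736 on dm6, plus strand, and the capitals mark the reverse complement of the word CACTGAGA, which is described further on.
numb start summit: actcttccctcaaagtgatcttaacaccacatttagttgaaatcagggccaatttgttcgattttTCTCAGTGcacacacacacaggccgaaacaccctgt

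At start sites, 6 of the 9 genes (66.7%) had an IDR summit within 500 bp: N, neur, mam, Su(H), fng and numb. The share over all protein-coding genes was 26.9%, and over those of 20 kb or more 43.8%, where 4 of the 6 long members had one. No test was made of this difference, since the genes were listed by name with earlier results known and the members are few. In the pooled list as a whole, 8 of the 9 had a summit within 500 bp of a start, all but H, against 47.6% of all protein-coding genes, and all 9 had one in the window, against 91.2%. The order by rank of the strongest start-site summit in the replicates placed numb first in each of the 3 lists, with Su(H) and neur next. The ranges of neur (1077 to 1729) and Su(H) (1143 to 1718) overlapped, as did those of mam (3581 to 5239) and fng (2886 to 4582), and N, from 1404 to 4316, overlapped all 4. Dl and Ser ranked below these 6 in every replicate.

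**Figure D3:**
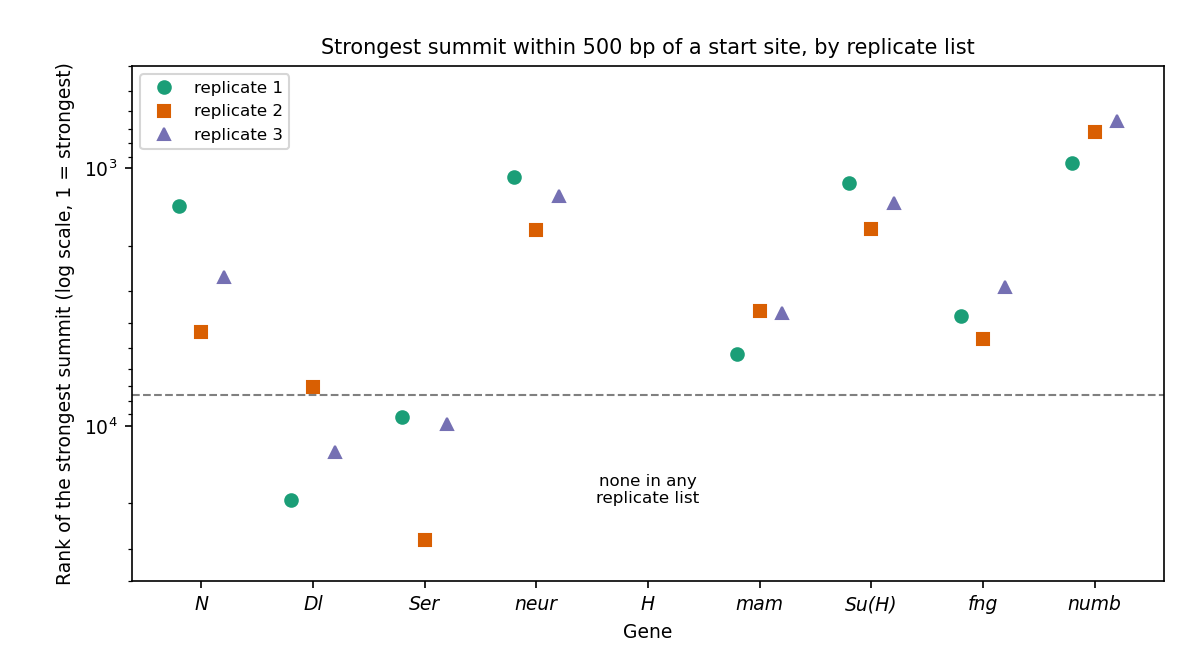
Rank of the strongest summit within 500 bp of an annotated start of each gene (y axis, log scale, strongest at the top) in the 3 replicate lists. The dashed line is rank 7588, the length of the IDR list. The numb points lie between 655 and 956, those of Dl between 7045 and 19330, those of Ser between 9213 and 27778, and H has no summit there in any replicate list.

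All 29 summits had a counterpart within 100 bp in at least 2 replicate lists, and 25 (86.2%) had one in all 3, where 88.6% of all IDR peaks did. In the strongest 7588 peaks of each replicate list, 17 of the 29 (58.6%) were found in all 3, against 62.8% of all IDR peaks. Both shares lay near those of the whole list. Replicate summits lay a median of 10 bp from the pooled one over the 83 matches of 87 possible. Of the 4 missing matches, 3 were in replicate 1 (fng at its start and a pair of weak summits in mam) and 1 in replicate 2 (the weak intronic summit of N), and in 3 of these cases the replicate had a summit 112 to 118 bp away. Each of the 7 genes with an IDR summit had at least 1 matched in all replicates. Among all protein-coding genes, 71.2% had an IDR summit in the window and 68.1% had one matched in all replicates. The 9 summits within the strongest 2000 of the pooled list, in the windows of mam, numb, N, neur and Su(H), all ranked within the strongest 2773 of each replicate list. Among the weaker ones, the mam summits at 14032944 and 14037395 ranked 13545 and 16679 in replicate 1, and no worse than 8587 in replicates 2 and 3. The lists do not give the depth behind each replicate.

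**Figure D4:**
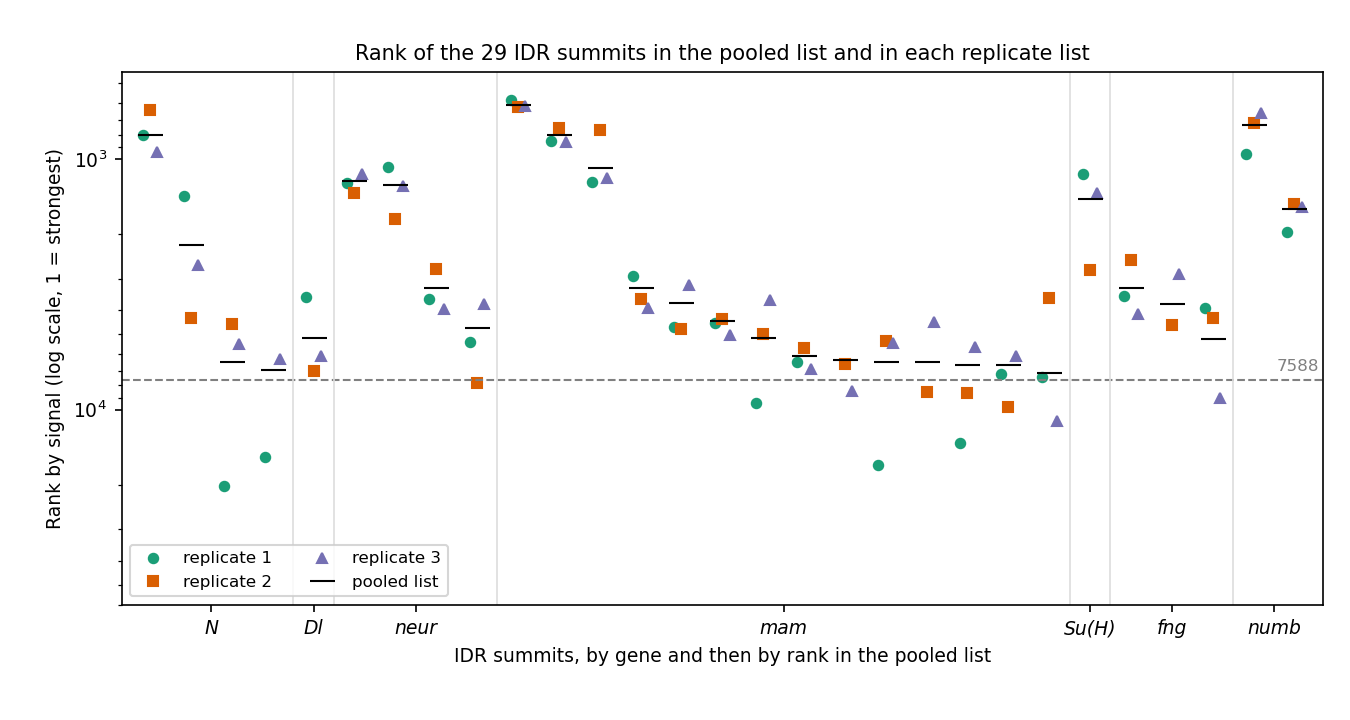
Rank by signal (y axis, log scale, strongest at the top) of each of the 29 IDR summits in the pooled list (black bars) and of its match in each replicate list (points), ordered by gene and then by pooled rank. The dashed line is rank 7588. The ranks of the strongest mam summit lie between 583 and 620 and those of the weak N summit at 3134530 between 4543 and 20204, while other weak summits, such as that of mam at 13996830, lie close together at 4333 to 5020. A missing point is a summit with no match within 100 bp.

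The summits at the starts of N and Su(H) shared a run of 13 bases. Both copies lie in the 5′ UTR and read on the plus strand, as both genes do. They lie 382 to 394 bp downstream of the start of N and 225 to 237 bp downstream of that of Su(H). Each is 33 bp or less from its summit. The run occurred within 100 bp of 12 of the 7588 IDR summits (0.158%) and of 3 of the 22412 other pooled summits (0.0134%). It was picked after the sequences had been seen, so its frequency is a description. Other pairs of summits shared runs as long or longer: 15 bases at Dl and fng and 14 at N and Dl, both stretches of GAGA repeat, and 13 at an upstream summit each of fng and numb. On dm6 the sites below are chrX:3135244-3135272 and chr2L:15039705-15039733, plus strand, with the shared run in capitals.
N 5′ UTR site: agaagcgcAAGAGGAAGAGAGcaatacgc
Su(H) 5′ UTR site: ccgcggttAAGAGGAAGAGAGtgcgtgag

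The run contains words that were common at peaks of the whole list. Of the 20 words of 8 bases most enriched at all IDR summits over their flanks, 7 hold only A and G, namely AGAAGAAG, GAAGAAGA, AAGAAGAA, AAGAAGAG, AGAGGAAG, GAGGAAGA and AAGAGGAA. They overlap each other and are called GAA words here. On either strand within 100 bp, a GAA word occurred at 289 of the 500 strongest IDR summits (57.8%), at 19.5% of all IDR summits, at 8.13% of the other pooled summits and at 6.25% of IDR flanks 1000 bp away. At the 9 genes it occurred at 7 of 29 summits (24.1%): N and Su(H) in the 5′ UTR, Dl in its intron, fng 107 bp upstream of its start, and 3 mam summits. In all but fng the words lay 26 bp or less from the summit. None of the 3 strongest summits, at mam, numb and N, held one. The word CACTGAGA, another of the 20, occurred at 3.07% of IDR summits and 0.554% of flanks. All these words were chosen by their contrast with the flanks, so that contrast is only a description. Among the member summits CACTGAGA occurred at 1, the numb start, 18 bp from the summit.

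Counts of known motifs depended on the width searched. The Su(H) motif, searched as CGTGGGAA, CGTGAGAA, TGTGGGAA or TGTGAGAA on both strands, was within 100 bp of 0 of the 29 summits and of 1.87% of all IDR summits. The same was true of the DRE (TATCGATA, 2.62% of all IDR summits), the Zelda motif (CAGGTAG, 1.00%) and the E-box CACGTG (2.33%). The GATA motif AGATAAG occurred at 1 summit, in mam (2.94% of all). The GAGA motif, GAGAGAG, was in 4 of 29 (13.8%) and in 7.22% of all IDR summits: N in its 5′ UTR, Dl in its intron, the fng start and mam 1399 bp past its first start. All 4 also held a GAA word. At fng and mam the GAGA matches reached to within 4 bp of the summit, and at N the nearest centre lay 69 bp away. Within 200 bp the Su(H) motif was found at 3 of the 29 (10.3%) and at 4.31% of all IDR summits, and the E-box at 2 (6.90%) and 5.07%, so for both the order of the shares turned with the wider search. It also turned for the GATA motif, still at 1 of 29 (3.45%) and at 5.84% of all IDR summits. For the GAGA motif the shares came closer within 200 bp, at 5 of 29 (17.2%) and 14.6% of all IDR summits. The 29 summits are few for words this rare, and a missing match says only that these letters are not in the window.

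Outside the IDR list, the pooled list held 102 further summits in the 9 windows, 36 of them at mam and 16 each at N and fng. Of these, 14 (13.7%) had a counterpart in all 3 replicates, against 17.8% of all pooled summits outside the IDR list. The strongest of them, in mam 2272 bp upstream of its second start, had a signal of 158 and rank 7685, just outside the IDR list, where the weakest IDR summit of the 9 genes, also in mam, had 169 and rank 7120.

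Other genes of the pathway were counted in the same way from a list of 35, which covers the proteases that cut Notch, its glycosylation and trafficking, ligand endocytosis, asymmetric division, corepressors and coactivators and the Bearded family. An IDR summit lay in the window of 30 (85.7%), against 71.2% of all protein-coding genes, and within 500 bp of a start of 11 (31.4%), against 26.9%. The strongest at a start was at Nedd4, a ubiquitin ligase gene whose product acts on Notch (signal 1347, ranks 403, 629 and 505), where the start of Edc3 lay nearer. Next came gro, which encodes the corepressor Groucho (1247, ranks 624, 452 and 591), Su(dx), another ubiquitin ligase gene (1106, ranks 460, 902 and 787), and aph-1, a gamma-secretase subunit gene, with its summit 1 bp from the start (1082, ranks 654, 679 and 733). The fifth, at ebi, had a signal of 526 and ranks of 2651, 1831 and 1605, and lay between the starts of ebi and AP-2alpha. The signals at Nedd4, gro, Su(dx) and aph-1 exceeded the 1036 of the strongest start-site summit among the 9 core genes, that of numb. No IDR summit lay in the windows of spdo, pon, l(2)gl, Bre1 and BobA.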

How the data were processed

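ChIP-seq peak lists of 3 replicates of 1 group were used. Per the labels, coordinates are dm6 and chromatin was sonicated to 200 to 800 bp. Per the text files deposited with the samples, each replicate list came from 1 alignment and a file common to all replicates, the pooled list from all 3 alignments and that file, and the IDR list from these lists. The aligner, peak caller, IDR threshold and depth were not given in the sources used here. Deposited signal (column 7) and −log10 q-value (column 9) are the authors' deposited values per peak. Signal was used to rank peaks within a list, and ranks of the equally long replicate lists were set side by side.

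Summits are printed 1-based. Genes and starts came from the Ensembl release 115 annotation, whose intervals for the 9 genes equal those of RefSeq, and sequence from the RefSeq copy of Release 6. Dl is Delta there. A match is a summit within 100 bp. No peak list gave a comparison between conditions, so no test was made: counts stand beside the same count over all protein-coding genes or peaks, which are not independent replicates. The members and lists were chosen with earlier results of these data known. The text names the 9 members, the 5 other pathway genes with the strongest start-site summit, and genes at a member's summit. The length classes, the 8-base words, the shared run and the 5 pathway genes named for having no IDR summit were chosen after values were seen. Matching was tested on simulated summits with known shifts. Windows were run only on summits planted inside genes, which any window recovers, so the window limits were not tested. Python 3.11.15 with pandas 2.3.3, numpy 2.4.6 and matplotlib 3.10.9 was used. Alternatives are given in the closing section.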

Additional observations from a re-analysis of the deposited data

How the results depend on the processing

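The number of the 9 genes with an IDR summit in the window was 7 in windows of 5 kb, of 2 kb and of the gene body only, and 6 with only the stronger IDR peaks (those above the median signal), which drops Dl. That list left 15 of the 29 member summits, and 14 of the 25 matched in all replicates. These 2 counts fall by construction, since fewer peaks enter. Restricting the window to the body left 15 of the other 35 pathway genes with an IDR summit, against 30. Such a count can only fall as the window narrows, and over all protein-coding genes the share fell from 71.2% to 18.2%. The 35 genes were not matched to all genes by length. Asking for a match in 2 replicate lists, leaving out each replicate in turn, gave 25 to 28 matched summits and 7 genes in every case. Within 50 bp 19 summits were matched, within 200 bp 28, and by overlap of intervals all 29. The genes with a start-site summit numbered 5 at 250 bp, 5 with IDR peaks matched in all replicates (fng is lost), 6 at 1000 bp and 8 in the pooled list. The share over all protein-coding genes was counted at 500 bp only, 26.9% in the IDR list and 47.6% in the pooled list. Within 200 bp the Su(H) motif was found at 3 of 29 summits and the E-box at 2, against 0 each within 100 bp. Counting summits nearest to the member's own start left 20, an alternative chosen after seeing the data. No paired analysis was possible because the samples form 1 group. The unknown depth limits all counts of weak summits.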
